A study of Mus musculus with 8 samples.

Results

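The 10 genes described here are imprinted genes with known roles in the hypothalamus: Peg3, Ndn, Magel2, Snrpn, Ube3a, Nnat, Meg3, Dlk1, Grb10 and Cdkn1c. They were taken from a list of names and matched by Ensembl identifier to a table of estimated counts for 55890 mouse genes, of which 32219 had a count in at least 1 library. All 10 were in the table, and all 10 were among the 18637 genes that passed a filter on low counts and were tested. Poly(A) RNA of the hypothalamus of 16-week-old female mice was sequenced to ask which genes change when estrogen receptor alpha cannot signal from the membrane of POMC neurons. The POMC-C451A f/f group carried a floxed Esr1 allele that Cre converts to the C451A form, together with the POMC-Cre transgene. The labels call the control group wildtype, while the study's methods describe the controls as littermates with the same floxed allele, and neither source gives them the transgene or names a strain. Each group had 4 libraries, and each library was made from the RNA of 2 animals pooled at random, so the replicates are pools and not single animals. The Pomc promoter drives Cre in POMC neurons, which are a small share of the cells in a whole hypothalamus, and the counts come from all its cells.

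In an imprinted gene, marks set in the germ line silence the copy inherited from 1 parent, so most of the RNA comes from the other copy. Many imprinted genes lie in clusters under a shared imprinting control region, and the hypothalamus, where several of them are abundant, is a tissue in which their loss disturbs feeding, growth, hormone release and maternal care. The Prader-Willi cluster on mouse chromosome 7, which holds Snrpn, Ndn and Magel2, is the best known of these, and Ube3a beside it is expressed mainly from the maternal copy in neurons. Gene counts do not separate the parental copies, so the values here are total RNA of each gene, and the parent of origin was not measured.

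Total estimated counts were 40498166, 36651880, 36095253 and 36564223 for the POMC-C451A f/f pools and 39692314, 43755502, 48942116 and 37841365 in the control pools. Levels are given as CPM, the counts of a gene per 1000000 counts of its library after TMM scaling, whose factors lay between 0.984 and 1.02. Pool values of a gene are listed in the order of replicates 1, 2, 3 and 4, and the replicate numbers are labels that are not stated to pair a pool of 1 group with a pool of the other. Positions are on GRCm38, from GENCODE release 21 of the mouse annotation, whereas the deposited counts were made on a later assembly.

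To compare the members with each other, CPM was divided by the length in kb of the union of each gene's annotated exons. On this scale, Meg3 had the highest median over the 8 pools, 392 CPM per kb, followed by Nnat at 350, Snrpn at 329 and Ndn at 218. These 4 members lay above the 99th percentile of the 18241 tested genes with a length, Meg3 at percentile 99.7 and Ndn at 99.4. Peg3 had a median of 82.6 CPM per kb and Dlk1 62.7, at percentiles 97.7 and 96.5. The lower members were Magel2 at 25.6 CPM per kb, Grb10 at 23.3, Ube3a at 5.14 and Cdkn1c at 2.78, and Cdkn1c, at percentile 45.8, was the member that lay below the median tested gene. The median percentile of the 10 members was 97.1, and that of the 56 tested genes in a wider list of 60 imprinted genes was 75.5.

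Neighbours in this order were read as different where their pools did not overlap. Meg3 ranged from 360 to 438 CPM per kb and Nnat from 283 to 449, so their pools overlapped, and Meg3 was above Nnat in 6 of 8 pools. Nnat also overlapped Snrpn, whose pools lay between 312 and 333 CPM per kb, and was above it in 6 of 8 pools. Magel2, from 18.1 to 29.6 CPM per kb, overlapped Grb10, from 21.6 to 24, and these are the only neighbours that changed places when the longest transcript stood in for the union of exons. The other 6 steps down the order, which are Snrpn to Ndn, Ndn to Peg3, Peg3 to Dlk1, Dlk1 to Magel2, Grb10 to Ube3a and Ube3a to Cdkn1c, showed no overlap of pools per kb. Without division by length, Meg3 alone took between 0.661% and 0.778% of a pool's counts, and Cdkn1c took between 0.000435% and 0.000913%.

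**Figure D1:**
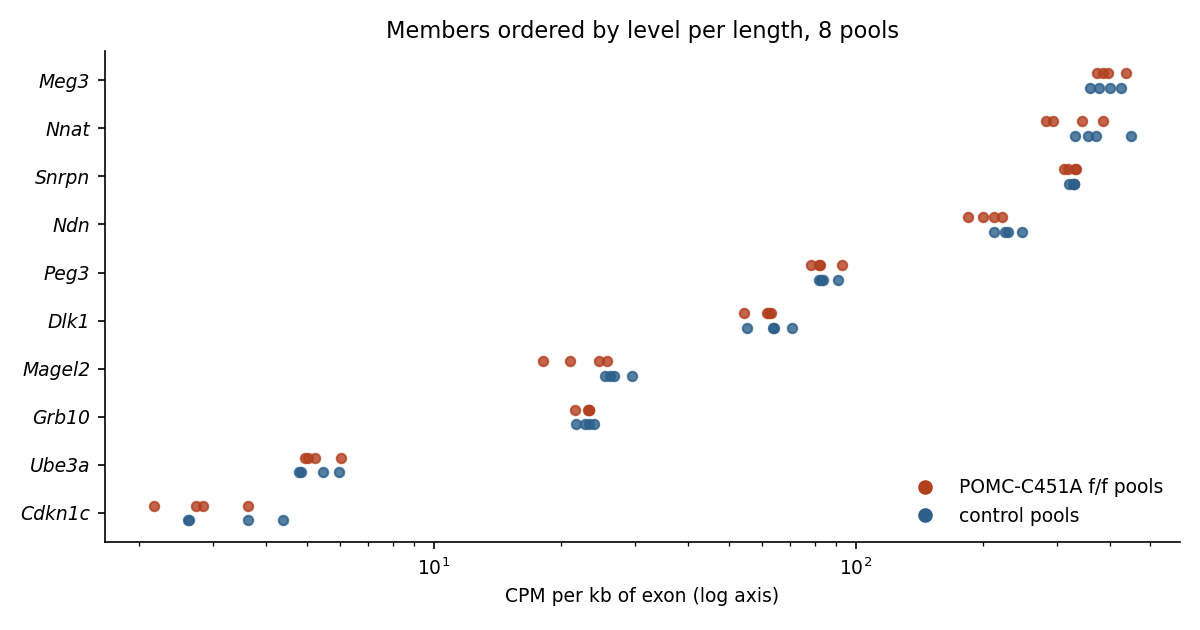
Level of each of the 10 members in CPM per kb of exon on a log axis, with 1 point per pool, POMC-C451A f/f in red and control in blue. Meg3, Nnat and Snrpn form the top of the order. The pools of Nnat overlap those of Meg3 and of Snrpn, while Meg3 and Snrpn do not overlap. Cdkn1c, with a median of 2.78 CPM per kb, is at the bottom.

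The genotype comparison asked whether RNA of these genes differed between genotypes. Of all 18637 tested genes, 4 were called by edgeR's quasi-likelihood test at a Benjamini-Hochberg adjusted p of at most 0.05 with an absolute log2 fold change over 0.5, which is 0.0215% of them. No member was called: 0 of 10 by edgeR and 0 of 10 by DESeq2, with 2 of 10 at an unadjusted p under 0.05 by each tool. DESeq2 called 13 of all genes and gave 906 of 32164 (2.82%) an unadjusted p under 0.05. Over all tested genes, 950 had an unadjusted p under 0.05 by edgeR, which is 5.1%. The members with such a p were Ndn and Magel2, both lower in POMC-C451A f/f pools. With 1 pool left out, this count ran from 0, without POMC-C451A f/f pool 4 or without control pool 1, to 4, without control pool 2. The share of all tested genes with such a p was 4.34%, 3.37% and 6.29% in these fits. The groups did not overlap in 0 of 10 members and in 519 of all tested genes, which is 2.78%. Without control pool 2 this held for 3 members and for 6.55% of all genes then tested, and without POMC-C451A f/f pool 2 for 1 member and 8.59%. The fold change was below 0 in 8 of 10 members and in 49.6% of all tested genes, and the median log2 fold change was -0.044 over the members and 0.00090 over all tested genes. With 1 pool left out the members' median ran from -0.086, without control pool 2, to -0.027, without POMC-C451A f/f pool 3, and was -0.075 without POMC-C451A f/f pool 4. With total counts in place of TMM 9 of 10 members were below 0, and with single pools left out between 6 and 10. For scale, the called gene Efr3b had 581 ± 31.4 CPM in POMC-C451A f/f pools and 286 ± 11.1 CPM in control pools (SD, n = 4 each), and the called gene Myo7a had 24.1 ± 1.02 and 39.6 ± 1.73 CPM (SD, n = 4 each).

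Ndn encodes necdin, a MAGE family protein of neurons that takes part in their differentiation and survival, and it is expressed from the paternal copy. It lies on the plus strand of chromosome 7 from 62346569 to 62350262 (ENSMUSG00000033585.6). Ndn was at 788, 823, 682 and 741 CPM in the POMC-C451A f/f pools and at 914, 786, 848 and 837 CPM in the control pools. POMC-C451A f/f pools 3 and 4 lay under the lowest control pool and control pool 1 above all others, and the groups overlapped through POMC-C451A f/f pools 1 and 2 and control pool 2. The means were 758 ± 60.9 and 846 ± 52.4 CPM (SD, n = 4 each). The log2 fold change was -0.16 (SE 0.059, 95% interval -0.29 to -0.027), with an unadjusted p of 0.0228 and an adjusted p of 0.878 by edgeR's quasi-likelihood test. The exact permutation test, two-sided, gave p = 0.0857, where the smallest p that 4 pools against 4 can give is 0.0286.

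Magel2 encodes another MAGE family protein, which takes part in the recycling of proteins from endosomes, and it is also expressed from the paternal copy. It lies a short way from Ndn on the same strand, from 62377010 to 62381640 on chromosome 7 (ENSMUSG00000056972.7). Magel2 was at 114, 119, 84 and 97.3 CPM in the POMC-C451A f/f pools and at 137, 118, 124 and 121 CPM in the control pools. POMC-C451A f/f pools 1, 3 and 4 lay under the lowest control pool, and the groups overlapped because POMC-C451A f/f pool 2 was just above control pool 2. The means were 104 ± 16.1 and 125 ± 8.59 CPM (SD, n = 4 each). Its log2 fold change was -0.27 (SE 0.098, 95% interval -0.48 to -0.052), the lowest of the 10 members, with an unadjusted p of 0.0199 and an adjusted p of 0.878 by edgeR's quasi-likelihood test. The exact permutation test, two-sided, gave p = 0.0571.

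Nnat encodes neuronatin, a small membrane protein of the endoplasmic reticulum with a part in the maturation and secretion of peptide hormones, and it is expressed from the paternal copy. Its place is on the plus strand of chromosome 2 from 157560078 to 157562522 (ENSMUSG00000067786.17). Nnat was at 628, 706, 518 and 536 CPM in the POMC-C451A f/f pools and at 822, 607, 680 and 651 CPM in the control pools. Again POMC-C451A f/f pools 3 and 4 were the lowest and control pool 1 the highest, while POMC-C451A f/f pool 2 lay above 3 of the control pools. The means were 597 ± 87.2 and 690 ± 92.8 CPM (SD, n = 4 each). On the log2 scale the fold change was -0.21 (SE 0.11, 95% interval -0.45 to 0.032), with an unadjusted p of 0.0825 and an adjusted p of 0.878 by edgeR's quasi-likelihood test. The exact permutation test, two-sided, gave p = 0.229. Without control pool 1 the log2 fold change of Nnat was -0.11 (unadjusted p 0.269), without POMC-C451A f/f pool 2 it was -0.30 (unadjusted p 0.0128) and without control pool 2 it was -0.27 (unadjusted p 0.0414), by edgeR.

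Ndn, Magel2 and Nnat rose and fell together over the pools although Nnat is on another chromosome. Within each pool the genes share the same library and the same tissue. Over the 8 pools, Pearson's r of log2 CPM was 0.97 between Ndn and Magel2, 0.96 between Ndn and Nnat and 0.92 between Magel2 and Nnat. Their promoters are printed because these members moved together. RefSeq promoters of 300 bases, from 250 before to 50 after the start, were found for 9 of 10 members, 14 promoters in all, Cdkn1c having no entry. The sequences are on GRCm38.p6, each from the plus strand, at chr7:62348027-62348326 for Ndn, chr7:62376729-62377028 for Magel2 and chr2:157559828-157560127 for Nnat, and the RefSeq start of Ndn lies downstream of the start in GENCODE. They run 5′ to 3′ in lower case, and the capitals mark each CG, the pair of letters at which imprinted promoters can carry methylation.
Ndn: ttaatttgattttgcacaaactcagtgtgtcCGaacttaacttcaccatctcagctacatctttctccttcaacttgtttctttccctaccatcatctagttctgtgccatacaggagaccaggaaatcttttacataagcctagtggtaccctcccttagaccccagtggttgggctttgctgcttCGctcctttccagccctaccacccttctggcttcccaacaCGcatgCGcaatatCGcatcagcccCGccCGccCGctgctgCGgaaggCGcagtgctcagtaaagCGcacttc
Magel2: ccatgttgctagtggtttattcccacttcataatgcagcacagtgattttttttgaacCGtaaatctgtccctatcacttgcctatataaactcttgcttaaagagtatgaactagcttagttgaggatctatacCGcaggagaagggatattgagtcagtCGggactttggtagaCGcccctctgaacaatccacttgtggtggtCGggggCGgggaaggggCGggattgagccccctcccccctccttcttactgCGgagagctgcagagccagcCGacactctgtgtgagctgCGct
Nnat: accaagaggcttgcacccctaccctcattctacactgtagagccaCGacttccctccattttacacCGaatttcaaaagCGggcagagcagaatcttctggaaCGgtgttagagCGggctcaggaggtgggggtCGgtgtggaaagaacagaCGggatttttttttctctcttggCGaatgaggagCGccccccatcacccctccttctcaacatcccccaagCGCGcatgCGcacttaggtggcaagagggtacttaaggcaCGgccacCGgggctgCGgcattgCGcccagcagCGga
The Ndn promoter held 11 CG, Magel2 10 and Nnat 17, and the median over all 32851 RefSeq promoters was 7. The share of all promoters with at least as many CG was 41.4% for Ndn, 43.5% for Magel2 and 31.4% for Nnat. Searched on both strands, the GC box GGGCGG, whose letters include a CG, was found 2 times in Ndn and 2 times in Magel2, which are among 4 of the 14 member promoters that hold it, and is in 35.7% of all promoters. The letters GCATGCGC, the core of the NRF1 motif, which also include CG, were found in Ndn and in Nnat, which are 2 of the 14 member promoters, and are in 2.71% of all promoters. This motif was chosen after the sequences had been read. The AP-1 motif TGANTCA was found in Magel2 alone of the 14, with a share of 7.81% over all promoters. The palindromic estrogen response element, GGTCA and TGACC with 3 bases between them, was found in 0 of 14 member promoters and in 0.07% of all. These matches are descriptions of the letters in the windows, and binding was not measured.

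**Figure D2:**
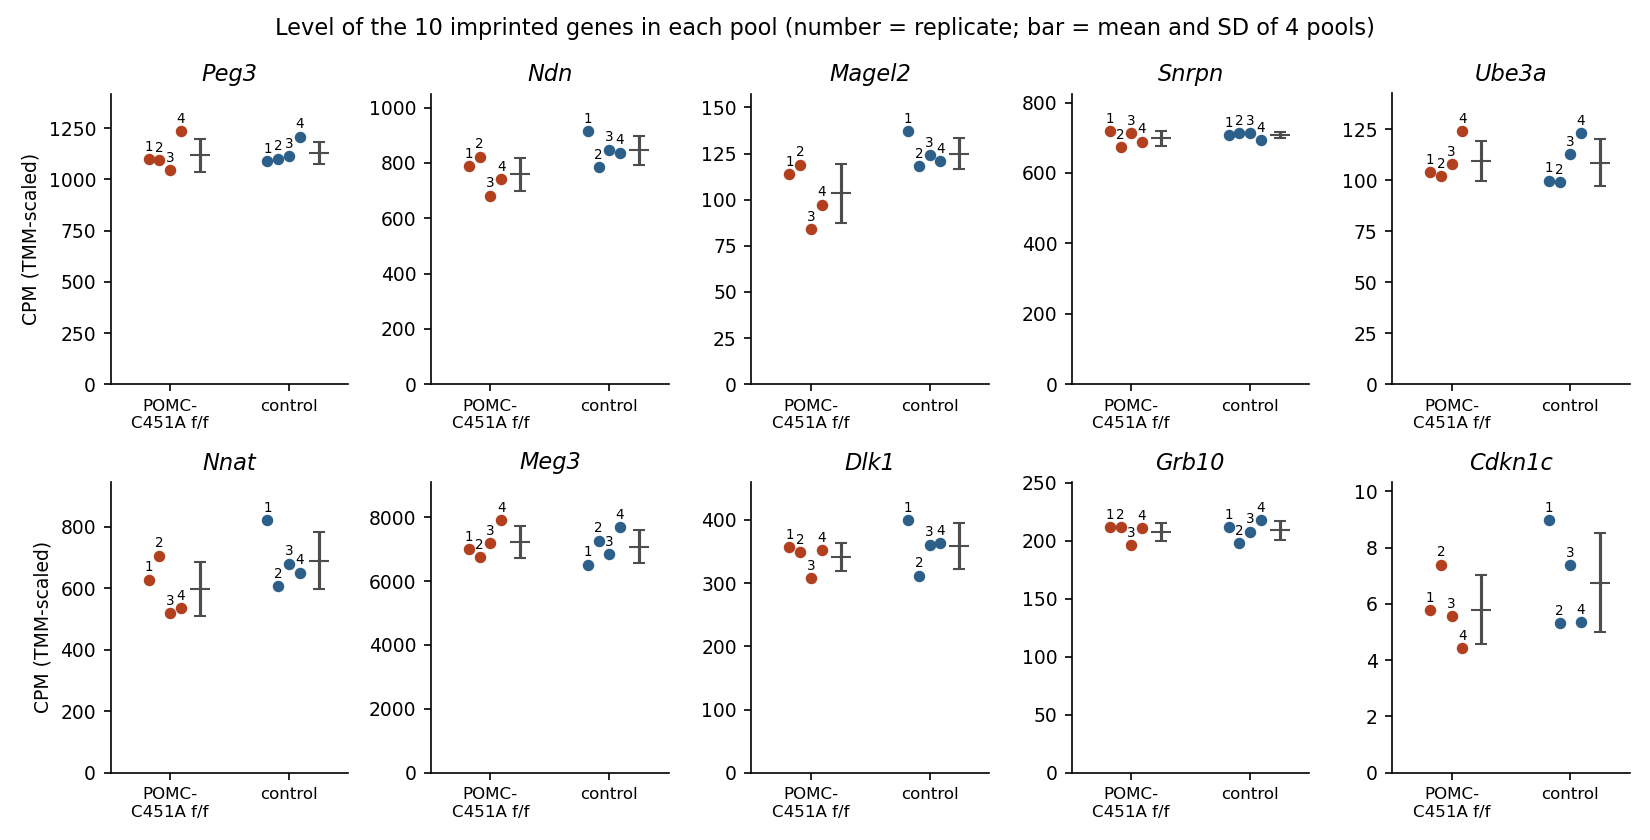
CPM of each of the 10 members in every pool, with 1 panel per gene, 4 POMC-C451A f/f pools and 4 control pools, and the mean and SD of each group. The groups overlap in all 10 panels, and Magel2 has 3 POMC-C451A f/f pools under its lowest control pool.

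The other members on chromosome 7 are Snrpn, Ube3a, Peg3 and Cdkn1c. Snrpn, paternally expressed, encodes a protein of the splicing machinery, and its promoter region belongs to the imprinting centre of the Prader-Willi cluster. The gene lies on the minus strand from 59982495 to 60140219 (ENSMUSG00000102252.6). Snrpn was at 718, 674, 714 and 689 CPM in the POMC-C451A f/f pools and at 708, 713, 713 and 694 CPM in the control pools. POMC-C451A f/f pools 2 and 4 lay under the lowest control pool and pools 1 and 3 above the highest. The control pools thus lay within the range of the POMC-C451A f/f pools. The log2 fold change was -0.017 (95% interval -0.078 to 0.045), with an adjusted p of 0.944 by edgeR's quasi-likelihood test, and it ran from -0.033, without POMC-C451A f/f pool 1, to -0.0022, without POMC-C451A f/f pool 2, when 1 pool was left out. Snrpn was the steadiest member: its pooled SD within groups was 0.034 on the log2 scale, at percentile 4.91 of the tested genes, whose median SD was 0.10. Of its exon length, 10% is shared on the same strand with Snurf and 27.3% with Gm38393, so the assignment of reads among these genes is uncertain.

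Ube3a encodes a ubiquitin ligase, and its loss from the maternal copy causes Angelman syndrome. It lies on the plus strand of chromosome 7 from 59228750 to 59311536 (ENSMUSG00000025326.13). Ube3a was at 104, 102, 108 and 124 CPM in the POMC-C451A f/f pools and at 99.9, 99.1, 113 and 123 CPM in the control pools. Replicate 4 was the highest pool of both groups, and the groups overlapped almost completely. Its log2 fold change was 0.0075 (95% interval -0.17 to 0.18), with an adjusted p of 0.993 by edgeR's quasi-likelihood test, and it was -0.0017 with total counts in place of TMM, -0.057 without POMC-C451A f/f pool 4, -0.033 without control pool 1, -0.0365 without control pool 2 and 0.071 without control pool 4. Exons of Snhg14, the antisense transcript that silences the paternal Ube3a copy in neurons, overlap 8.74% of the Ube3a exon length on the opposite strand. The library kit keeps strand, but the strand setting of the counting is not stated.

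Peg3, in the proximal cluster of chromosome 7, encodes a zinc finger transcription factor expressed from the paternal copy and is known for its part in maternal behaviour and growth. It lies on the minus strand from 6703892 to 6730431 (ENSMUSG00000002265.18). Peg3 was at 1100, 1094, 1045 and 1234 CPM in the POMC-C451A f/f pools and at 1090, 1101, 1114 and 1209 CPM in the control pools. As for Ube3a, replicate 4 was the highest pool in each group, and the control pools lay within the range of the POMC-C451A f/f pools. On the log2 scale the fold change was -0.013 (95% interval -0.13 to 0.10), with an adjusted p of 0.979 by edgeR's quasi-likelihood test. This direction was not stable: the log2 fold change was 0.018 without POMC-C451A f/f pool 3 and 0.021 without control pool 4.

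Cdkn1c, in the distal cluster of chromosome 7, encodes p57, an inhibitor of cyclin-dependent kinases that is expressed from the maternal copy. It lies on the minus strand from 143458339 to 143461050 (ENSMUSG00000037664.14), and 30.7% of its exon length is overlapped by Gm44732 on the opposite strand. Cdkn1c was at 5.78, 7.39, 5.56 and 4.42 CPM in the POMC-C451A f/f pools and at 8.98, 5.32, 7.38 and 5.35 CPM in the control pools, from 159 to 362 counts a pool. Control pools 1 and 3 and POMC-C451A f/f pool 2 were high, and the groups overlapped. The log2 fold change was -0.22 (95% interval -0.65 to 0.21), with an adjusted p of 0.891 by edgeR's quasi-likelihood test. Single pools moved the log2 fold change of Cdkn1c, which was -0.060 without control pool 1, -0.12 without POMC-C451A f/f pool 4 and -0.37 without POMC-C451A f/f pool 2. It was also the most variable member, with a pooled SD of 0.31 on the log2 scale, at percentile 96 of the tested genes.

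Meg3 and Dlk1 belong to the same cluster on chromosome 12 and are expressed from opposite parental copies. Meg3 is a maternally expressed long noncoding RNA that lies on the plus strand from 109541001 to 109571726 (ENSMUSG00000021268.19). It was at 6996, 6753, 7189 and 7915 CPM in the POMC-C451A f/f pools and at 6510, 7269, 6834 and 7689 CPM in the control pools. POMC-C451A f/f pool 4 and control pool 4 were the highest and the groups overlapped. Its log2 fold change was 0.028 (95% interval -0.097 to 0.15), with an adjusted p of 0.957 by edgeR's quasi-likelihood test, and it was -0.020 without POMC-C451A f/f pool 4 and -0.012 without control pool 1. Dlk1 encodes a membrane protein related to the Notch ligands, is expressed from the paternal copy and lies on the plus strand from 109452823 to 109463336 (ENSMUSG00000040856.18). It was at 357, 349, 308 and 352 CPM in the POMC-C451A f/f pools and at 400, 312, 361 and 363 CPM in the control pools. POMC-C451A f/f pool 3 and control pool 2 were low, control pool 1 was high, and the groups overlapped. On the log2 scale the fold change was -0.072 (95% interval -0.23 to 0.083), with an adjusted p of 0.895 by edgeR's quasi-likelihood test. For Dlk1 the log2 fold change was -0.018 without control pool 1, -0.027 without POMC-C451A f/f pool 3 and -0.14 (unadjusted p 0.0406) without control pool 2.

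Grb10 encodes an adaptor that inhibits signalling from the insulin receptor and is expressed from the maternal copy in most tissues and the paternal copy in neurons. The gene lies on the minus strand of chromosome 11 from 11930508 to 12038683 (ENSMUSG00000020176.18). Grb10 was at 212, 212, 196 and 211 CPM in the POMC-C451A f/f pools and at 212, 198, 208 and 218 CPM in the control pools. Apart from POMC-C451A f/f pool 3 and control pool 2, which were lower, the pools of both groups lay close together and overlapped. The log2 fold change was -0.0090 (95% interval -0.096 to 0.078), with an adjusted p of 0.98 by edgeR's quasi-likelihood test, and it was 0.017 without POMC-C451A f/f pool 3 and 0.011 without control pool 4. Its pooled SD of 0.057 on the log2 scale was the lowest after that of Snrpn among the members.

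Within clusters, the ratios of levels per kb were compared between groups. Ndn over Magel2 was 8.62, 8.66, 10.2 and 9.55 for the POMC-C451A f/f pools and 8.35, 8.38, 8.58 and 8.68 in the control pools. The ratio was highest in the POMC-C451A f/f pools in which both genes were lowest, and its means of 9.26 ± 0.761 and 8.5 ± 0.159 (SD, n = 4 each) gave p = 0.0857 by the exact permutation test, two-sided. Meg3 over Dlk1 was 6.14, 6.06, 7.29 and 7.02 for the POMC-C451A f/f pools and 5.09, 7.28, 5.92 and 6.63 in the control pools, and the groups overlapped (exact permutation test, two-sided, p = 0.457). Meg3 over Rian, another maternally expressed noncoding RNA of the cluster, had means of 6.97 ± 0.419 and 6.63 ± 0.439 (SD, n = 4 each; exact permutation test, two-sided, p = 0.314). Peg3 over Usp29, its neighbour with the same paternal expression, lay between 7.45 and 8.01 in all 8 pools (exact permutation test, two-sided, p = 0.143). Snrpn over Ube3a had means of 61.4 ± 5.61 and 62.6 ± 7.02 (SD, n = 4 each; exact permutation test, two-sided, p = 0.8).

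The members were also compared pool by pool. Relative to each member's mean over the 8 pools, POMC-C451A f/f pool 3 was the lowest pool for 6 of 10 members, with a median deviation of -0.12 on the log2 scale. Control pool 1 was the highest for 5 of 10 members, with a median deviation of 0.11. POMC-C451A f/f pool 4 was the highest for 3 members, among them Peg3 and Ube3a, and lay well below the mean for Ndn, Magel2 and Nnat. Besides Ndn, Magel2 and Nnat, Pearson's r over the 8 pools was 0.82 between Peg3 and Ube3a, 0.76 between Ube3a and Meg3, 0.87 between Nnat and Cdkn1c and -0.93 between Meg3 and Cdkn1c. For Dlk1 it was 0.82 with Grb10, 0.81 with Ndn, 0.76 with Nnat and 0.70 with Magel2. These correlations describe 8 libraries that share their groups and are given with no test.

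**Figure D3:**
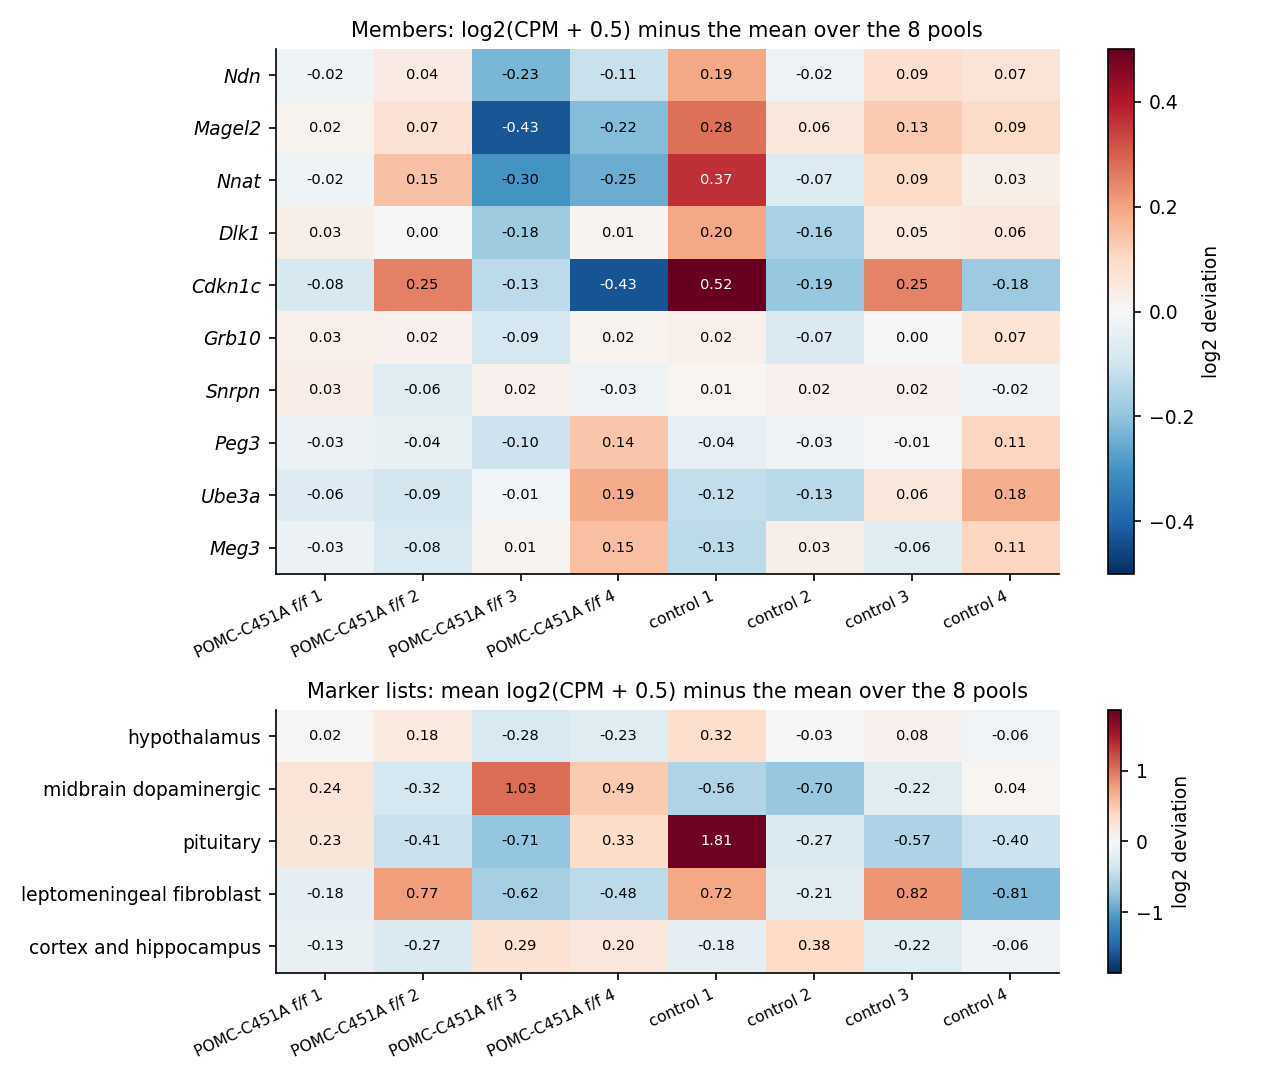
Deviation of each member and of 5 marker lists from their own mean over the 8 pools, on the log2 scale, with pools as columns and a colour scale from blue (low) to red (high). Ndn, Magel2 and Nnat are low in POMC-C451A f/f pools 3 and 4 and high in control pool 1, as is the hypothalamus list.

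Marker lists of cell types and regions moved with the same pools. The hypothalamus list holds 18 genes, of which 17 were tested, with Kiss1 near 0 and counted in 2 of 8 pools. Its summed level was 1334, 1528, 1012 and 1177 CPM in the POMC-C451A f/f pools and 1824, 1314, 1551 and 1283 CPM in the control pools. The sum was thus lowest in POMC-C451A f/f pools 3 and 4 and highest in control pool 1, the order seen for Ndn, Magel2 and Nnat at both ends. Its most abundant gene was Pmch, at 458, 521, 312 and 403 CPM in the POMC-C451A f/f pools and 631, 427, 513 and 445 CPM in the control pools. Of the 17 tested genes, 14 were lower in POMC-C451A f/f pools, 3 of them at an unadjusted p under 0.05, and the median log2 fold change was -0.19. Of all tested genes 49.6% were lower and 5.1% had such a p, and no gene of the hypothalamus list was called.

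The midbrain dopaminergic list ran the other way. All 10 of its genes were tested and all 10 had a higher mean in the POMC-C451A f/f group, 8 of them at an unadjusted p under 0.05, with a median log2 fold change of 0.70. Over all tested genes 5.1% had such a p and 49.6% were lower, and no gene of the list was called. Its summed level was 288, 224, 462 and 332 CPM in the POMC-C451A f/f pools and 192, 184, 225 and 243 CPM in the control pools. POMC-C451A f/f pools 3 and 4, in which Ndn, Magel2 and Nnat were lowest, were highest for this list. Its most abundant gene, Aldh1a1, was at 96.9, 82.2, 148 and 104 CPM in the POMC-C451A f/f pools and 66.8, 79.5, 83.4 and 78.5 CPM in the control pools. Slc6a3, the gene for the dopamine transporter, was at 36.4, 12.3, 90 and 53.8 CPM in the POMC-C451A f/f pools and at 6.9, 4.24, 15.8 and 26.4 CPM in the control pools. In bulk RNA, fewer cells of a type and less RNA per cell cannot be told apart, and what part the mix of cells or the dissected region had in the values of Ndn, Magel2 and Nnat was not tested.

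The other lists bore on single pools. The pituitary list holds 10 genes, of which 5 were tested, with Lhb, Fshb, Pou1f1, Ghrhr and Gnrhr too low to test. Its summed level was 225, 33.1, 17.9 and 191 CPM in the POMC-C451A f/f pools and 1455, 97, 22.6 and 34.1 CPM in the control pools. Control pool 1, the highest pool for 5 members, thus stood far above the rest, and the most abundant gene of the list, Prl, was at 1013 CPM in it. The leptomeningeal fibroblast list, with 9 of 9 genes tested and Col1a2 the most abundant, summed to 74.4, 131, 57.2 and 59.7 CPM in the POMC-C451A f/f pools and 131, 73.3, 134 and 53.4 CPM in the control pools. The pools high in this list, POMC-C451A f/f pool 2 and control pools 1 and 3, were the high pools of Cdkn1c, and the part of these cells in its values was not tested. Igf2, an imprinted growth factor gene of the same distal cluster, was at 45.2, 104, 37.6 and 36.8 CPM in the POMC-C451A f/f pools and 92.4, 47.7, 119 and 29.6 CPM in the control pools, and was high in the same 3 pools. The choroid plexus list, with 7 of 8 genes tested and Clic6 the most abundant, summed to between 33.2 and 42.2 CPM. The cortex and hippocampus list, with 4 of 5 genes tested and Slc17a7 the most abundant, had a summed level of 26, 17.3, 61.7 and 34.3 CPM in the POMC-C451A f/f pools and 18.8, 58.4, 18.7 and 19.8 CPM in the control pools. It was highest in POMC-C451A f/f pool 3 and control pool 2, the low pools of Dlk1 and Grb10, and its part in their values was not tested. The endothelial list of 6 genes, led by Flt1, summed to between 165 and 201 CPM.

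Fits that took these lists into account changed the values of Ndn and Magel2. With the mean log2 CPM of the midbrain dopaminergic list as a covariate in edgeR, the log2 fold change was -0.056 for Ndn (unadjusted p 0.402), -0.062 for Magel2 (unadjusted p 0.495) and -0.013 for Nnat. With the hypothalamus list as the covariate it was -0.085 for Ndn (unadjusted p 0.0156) and -0.15 for Magel2 (unadjusted p 0.0108), so both kept an unadjusted p under 0.05. A covariate that differs between the groups takes up part of the genotype difference by construction, and both fits were chosen after seeing the data. Over the fits that left out 1 pool each, Ndn ranged from -0.20 to -0.11 with an unadjusted p under 0.05 in 5 of 8, and Magel2 from -0.34 to -0.18 with 6 of 8. Without control pool 1 the unadjusted p was 0.0728 for Ndn and 0.0569 for Magel2, without POMC-C451A f/f pool 4 it was 0.0563 and 0.0558, and without POMC-C451A f/f pool 3 it was 0.0607 and 0.0392. The adjusted p by edgeR or DESeq2 was never below 0.468 for Ndn or 0.455 for Magel2 in any of the 19 alternative fits.

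**Figure D4:**
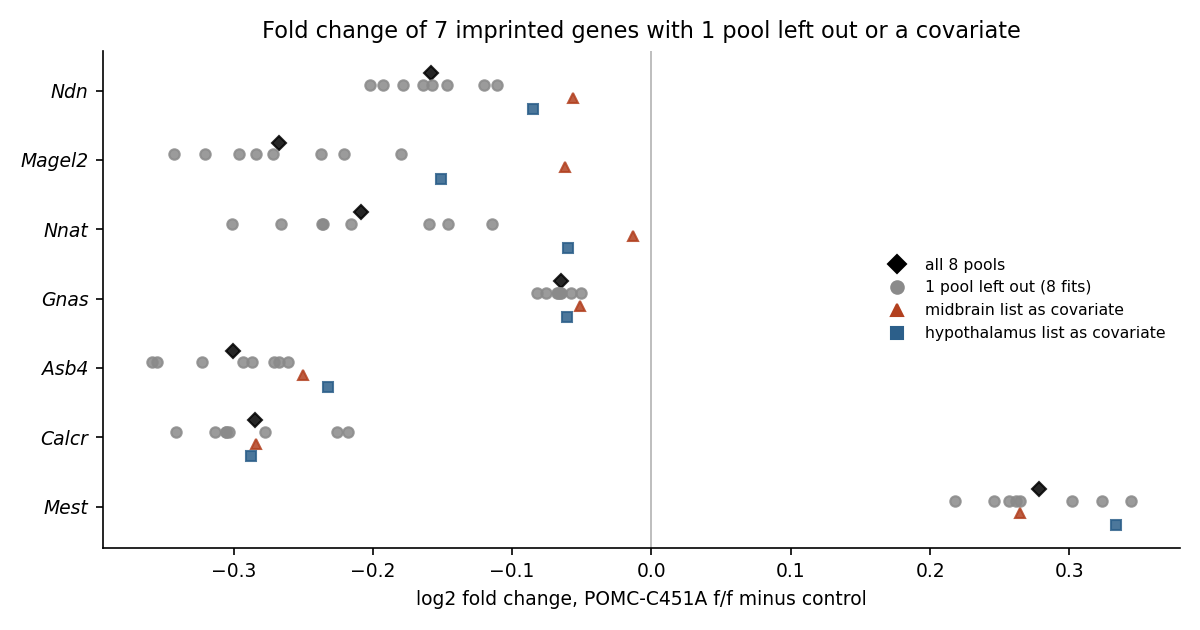
Log2 fold change, POMC-C451A f/f minus control, for Ndn, Magel2, Nnat and 4 other imprinted genes, with all 8 pools, with 1 pool left out (8 fits), and with the midbrain or the hypothalamus list as a covariate. With 1 pool left out Magel2 lies between -0.34 and -0.18 and Calcr between -0.34 and -0.22, and with the midbrain list Magel2 is at -0.062 and Calcr at -0.28.

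The wider list of 60 imprinted genes, made up of the members and the other genes of their clusters and of further clusters, gave a like picture. Of these, 56 were tested, 38 were lower and 18 higher in the POMC-C451A f/f group, and the median log2 fold change was -0.017. By edgeR 0 were called, and 7 had an unadjusted p under 0.05, 2 higher and 5 lower. With 1 pool left out this count ran from 4, without control pool 1, to 11, without control pool 2 or without POMC-C451A f/f pool 2. The share of all tested genes moved with it in these fits, at 3.37%, 6.29% and 9.38%, against 5.1% with all pools, but not without POMC-C451A f/f pool 4, where the list had 9 such genes and the share was 4.34%. The groups did not overlap for 1 gene, Calcr, against the 2.78% of all tested genes. Of 27 tested genes listed as paternally expressed, 21 were lower (77.8%) with a median log2 fold change of -0.052, and of 11 tested genes listed as maternally expressed, 6 were lower (54.5%) with a median of -0.044. The share was 49.6% over all tested genes, and the difference between the paternal and maternal lists was not tested. The highest level per kb in the list was that of Nap1l5, a paternally expressed histone chaperone gene, at 631 CPM per kb and percentile 99.9, above Meg3. The lowest was that of Ins2, with 1 count in 1 pool. Ins2, Zfp264, Phlda2 and Dio3 did not pass the filter on low counts and were not tested, and Dio3, the gene for a thyroid hormone deiodinase in the Dlk1-Meg3 cluster, had between 6 and 15 counts a pool.

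Chromosome 7 was taken on its own, since 6 members lie on it and since a stretch of it beyond 80 Mb held a larger share of genes with an unadjusted p under 0.05 than the rest. In that stretch, whose tested genes start between 80024814 and 104914742, 47 of 231 tested genes (20.3%) had an unadjusted p under 0.05, against 63 of 1222 (5.16%) on the remainder of the chromosome, and 2 of the 47 were called. The stretch was taken with results of these data known, so this contrast is a description and not a test. None of the 27 imprinted genes of the list on chromosome 7 lies inside the stretch. The nearest is Peg12 at 17.5 Mb from its edge, followed by Mkrn3, Magel2 and Ndn at 17.6 Mb each, and Snrpn is 19.9 Mb, while Cdkn1c is 38.5 Mb and Peg3 73.3 Mb away. Of these 27 genes, 24 were tested, 16 were lower, and 3 (12.5%) had an unadjusted p under 0.05: Ndn, Magel2 and Kcnq1. In the central cluster this held for 2 of 9 tested genes, in the distal cluster for 1 of 12 and in the Peg3 cluster for 0 of 3. Leaving out 1 pool changed these genes. Without control pool 1 only Kcnq1 had such a p, and without POMC-C451A f/f pool 3 only Magel2. Without POMC-C451A f/f pool 4 they were Usp29 and Kcnq1, and without POMC-C451A f/f pool 2 they were Ndn, Magel2, Atp10a and Osbpl5. Kcnq1, a potassium channel gene, had between 6 and 25 counts a pool, at 0.272, 0.618, 0.702 and 0.389 CPM in the POMC-C451A f/f pools and 0.323, 0.138, 0.348 and 0.265 CPM in the control pools, and the groups overlapped. Its log2 fold change was 0.86 (SE 0.37), and the adjusted p by edgeR was 0.878. Among the neighbours of Ndn and Magel2, Mkrn3 had between 20 and 32 counts a pool and Peg12 between 7 and 16, so changes in them were hardly measurable at this depth.

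Of the 7 genes with an unadjusted p under 0.05, 3 lie on chromosome 6, and they stayed under 0.05 in more of the alternative fits than Ndn and Magel2 did. Asb4, a maternally expressed gene for a ubiquitin ligase adaptor (ENSMUSG00000042607.16, from 5383386 to 5433022), was at 39, 36.5, 32.1 and 32.6 CPM in the POMC-C451A f/f pools and at 45.9, 38.3, 43.9 and 44.5 CPM in the control pools. POMC-C451A f/f pool 1 was above control pool 2, and apart from that pair the groups were separate. Its log2 fold change was -0.30 (95% interval -0.46 to -0.14), with an unadjusted p of 0.00182 and an adjusted p of 0.878 by edgeR's quasi-likelihood test. By DESeq2 the unadjusted p of Asb4 was 0.000122 and the adjusted p 0.096, the lowest adjusted p of its alternative fits, so Asb4 was not called there either. Calcr, the calcitonin receptor gene (ENSMUSG00000023964.16, from 3685680 to 3764714), was at 29.4, 26, 23.1 and 27.6 CPM in the POMC-C451A f/f pools and at 30.5, 31.1, 31 and 36.9 CPM in the control pools. Each POMC-C451A f/f pool lay under each control pool, so the exact permutation test, two-sided, gave p = 0.0286, the smallest it can give. On the log2 scale the fold change was -0.28 (95% interval -0.46 to -0.11), with an unadjusted p of 0.00468 and an adjusted p of 0.878 by edgeR's quasi-likelihood test. Mest, a paternally expressed gene for a hydrolase-like protein (ENSMUSG00000051855.16, from 30723547 to 30748465), was at 19.6, 19.3, 19.5 and 17.1 CPM in the POMC-C451A f/f pools and at 17.7, 13.7, 14.6 and 16.4 CPM in the control pools. Mest was higher in the POMC-C451A f/f group, with overlap between POMC-C451A f/f pool 4 and control pool 1. The log2 fold change was 0.28 (95% interval 0.095 to 0.46), with an unadjusted p of 0.00668 and an adjusted p of 0.878 by edgeR's quasi-likelihood test. Over the alternative fits by edgeR or DESeq2 the lowest adjusted p was 0.344 for Calcr and 0.484 for Mest.

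With the midbrain dopaminergic list as a covariate, the log2 fold change was -0.25 for Asb4 (unadjusted p 0.0281), -0.28 for Calcr (unadjusted p 0.0275) and 0.26 for Mest (unadjusted p 0.0421). Each of these genes had an unadjusted p under 0.05 in 8 of 8 fits that left out 1 pool. One further fit left out control pool 1 and POMC-C451A f/f pools 3 and 4, the extreme pools of Asb4. In it Asb4 was at -0.16 (unadjusted p 0.0508 by edgeR), while Calcr and Mest stayed under 0.05. That fit was chosen after seeing the data. Gnas, the gene for the stimulatory G protein alpha subunit in a cluster on chromosome 2 with a complex pattern of imprinting, was at 2208, 2219, 2183 and 2267 CPM in the POMC-C451A f/f pools and 2328, 2320, 2396 and 2244 CPM in the control pools. Its groups overlapped through control pool 4, and the log2 fold change was -0.065, with an adjusted p of 0.878 by edgeR's quasi-likelihood test. For comparison, Esr1, the gene that carries the C451A change, was at 11.6, 12.2, 10 and 10.8 CPM in the POMC-C451A f/f pools and 12.3, 12.8, 11.6 and 16 CPM in the control pools, with a log2 fold change of -0.23, or -0.13 without control pool 4, and an adjusted p of 0.878 by edgeR. Pomc, whose promoter drives the Cre, was at 49.5, 50.2, 35.8 and 30.6 CPM in the POMC-C451A f/f pools and 98.9, 49.7, 50.5 and 50.8 CPM in the control pools, and its log2 fold change of -0.59 was -0.28 without control pool 1, the pool that was also highest for Ndn, Magel2 and Nnat.

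**Figure D5:**
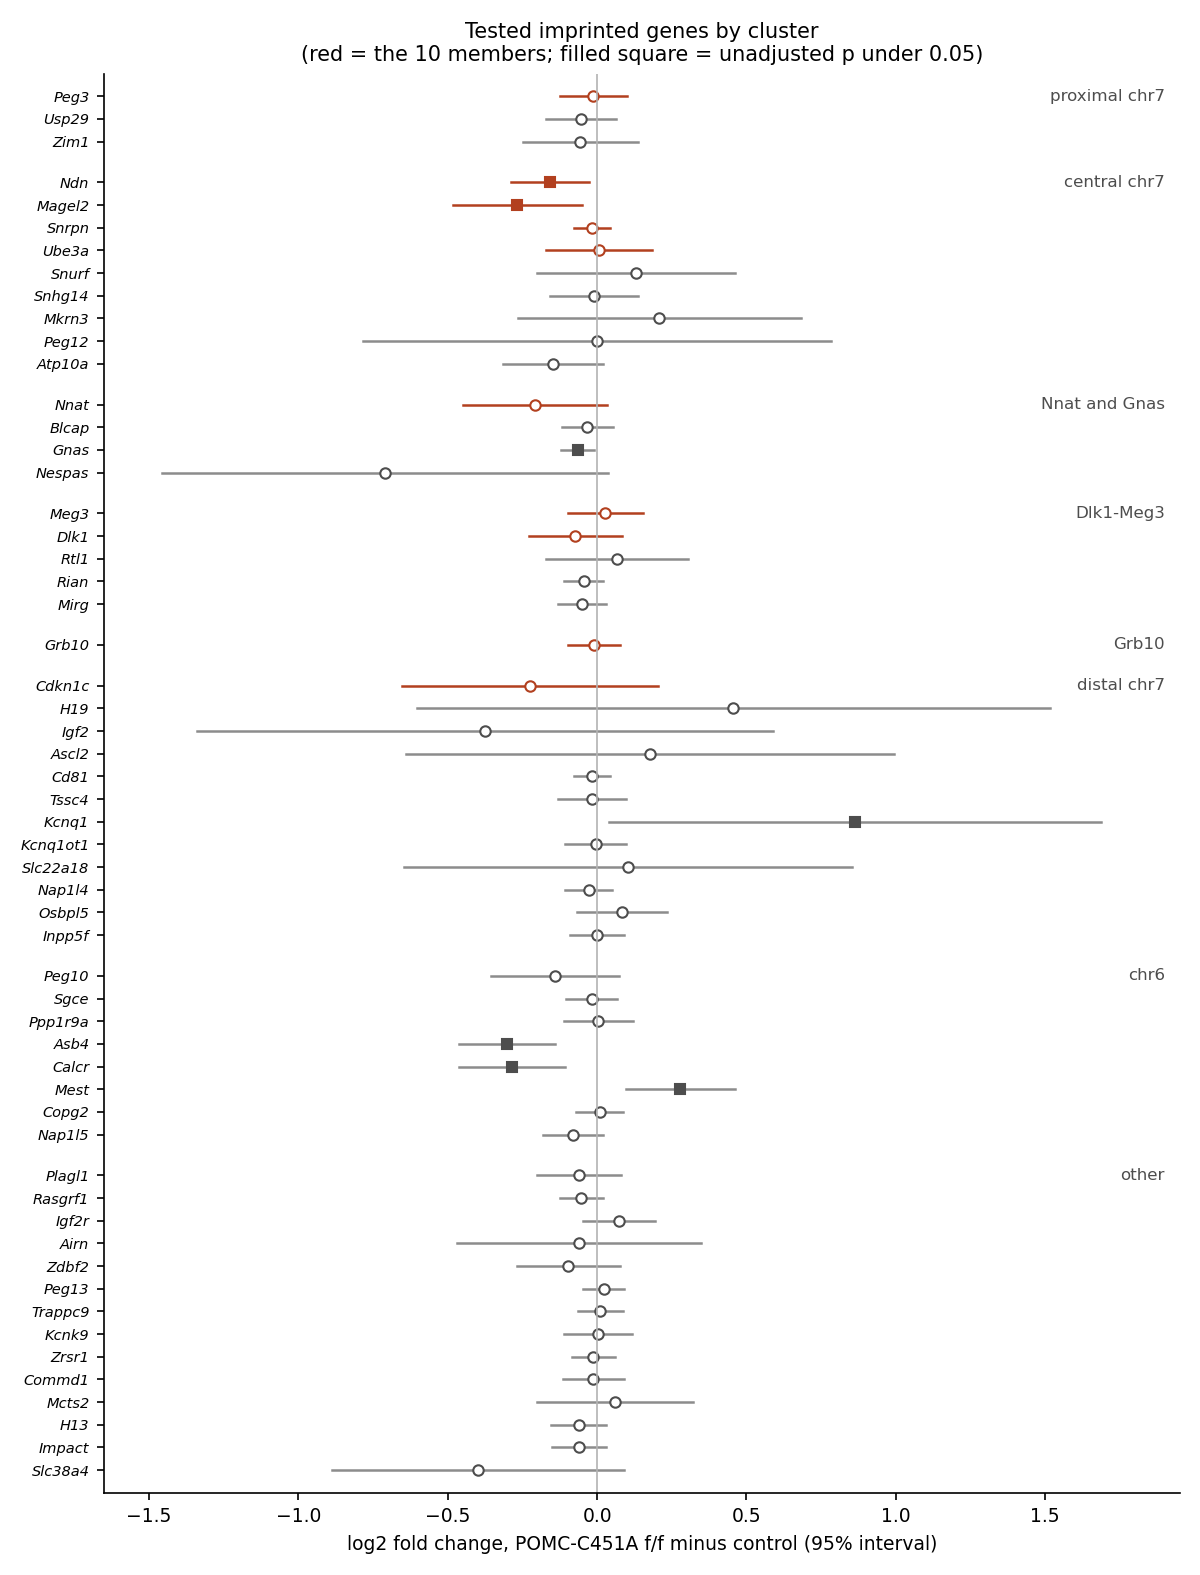
Log2 fold change, POMC-C451A f/f minus control, with its 95% interval for the tested genes of the wider imprinted list, ordered by cluster. Of 56 genes 38 lie below 0, and the intervals of Ndn, Magel2, Asb4, Calcr and Gnas lie below 0 while those of Mest and Kcnq1 lie above.

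For each member, the tested gene with the most similar course over the 8 pools was found by Pearson's r of log2 CPM. These were Mesd for Ndn (0.997), Arhgap36 for Magel2 (0.99), Gpc4 for Nnat (0.987), Plagl1 for Dlk1 (0.988), Pcsk1 for Grb10 (0.982) and Llgl2 for Cdkn1c (0.996). Plagl1 is itself an imprinted gene of the wider list, and Mesd lies on chromosome 7 at 83884466, within the stretch beyond 80 Mb described above. The others were Dzip3 for Peg3 (0.992), Pik3c2a for Ube3a (0.986), Csmd3 for Meg3 (0.987) and 2810025M15Rik for Snrpn (0.976). Each is the highest value among all the other tested genes over 8 points, so a high r had to be found, and it is given as a description.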

How the data were processed

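Hypothalamic poly(A) RNA of 8 pools, 4 per genotype, was sequenced after stranded library preparation. The authors quantified reads with Salmon 1.10 and summed transcripts to genes, and the deposited values are estimated counts (expected counts) per gene, not scaled between pools. Their DESeq2 table, with a log2 fold change, standard error, Wald statistic, p and adjusted p per gene, was not used. Counts were rounded, filtered by filterByExpr (minimum count 10, minimum total 15), scaled by TMM and tested for genotype with the quasi-likelihood test of edgeR 4.0.16 (limma 3.58.1, R 4.3.3), with Benjamini-Hochberg adjustment over all 18637 tested genes. A gene was called at an adjusted p of at most 0.05 and an absolute log2 fold change over 0.5. Pool values are CPM, and log2 values use a pseudocount of 0.5. Single values were compared by an exact permutation test, two-sided. Of 55890 genes, 51424 were matched by identifier to GENCODE release 21 for symbols, positions and exon lengths.

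Genes named are the 10 members, genes of the wider imprinted list on chromosome 7, with an unadjusted p under 0.05, at the highest and lowest level or in a member's cluster, the most similar gene of each member, leading or near-absent markers, and Esr1, Pomc, Efr3b, Myo7a, Prl and Slc6a3. The members and lists were chosen with earlier results of these data known. Alternatives were DESeq2 1.42.0, its size factors, total counts, other filters, robust estimation, unrounded counts, no fold change threshold, a replicate block, another gene length and leaving out each pool, and 3 fits were added after seeing the data. The fits were checked on simulated data. No pool was left out of the reported values.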

Additional observations from a re-analysis of the deposited data

Results flagged for a closer look

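In 66 groups of 4 pools, 33 quantities in each genotype, the distance from the highest or lowest pool to the next was divided by the range of the group, and a ratio above Dixon's 95% critical value marked a pool far from the others. Chance marks about 1 in 20 such groups, or 3.3 of 66, and 8 were found. The quantities are not independent, since Prl, for example, is also part of the pituitary list. An excess of marks can therefore not be read from these counts. Among the members, Dlk1 was lower in POMC-C451A f/f pool 3, at 308 CPM against 349 to 357 CPM in the others of its group (ratio 0.836), and Grb10 was lower in the same pool, at 196 CPM against 211 to 212 CPM (ratio 0.923). Of the wider imprinted list, Calcr was higher in control pool 4, at 36.9 CPM against 30.5 to 31.1 CPM (ratio 0.908), and Mest was lower in POMC-C451A f/f pool 4, at 17.1 CPM against 19.3 to 19.6 CPM (ratio 0.888). The ratio of Meg3 over Rian per kb was higher in POMC-C451A f/f pool 4, at 7.59 against 6.67 to 6.82 (ratio 0.837).

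The remaining marks fell on control pool 1. Pomc was at 98.9 CPM in it against 49.7 to 50.8 CPM in the other control pools (ratio 0.978), Prl at 1013 CPM against 10.7 to 68.8 CPM (ratio 0.942), and the pituitary list, as a mean of log2 CPM, at 2.93 against 0.554 to 0.857 (ratio 0.873). Why these pools stood apart was not tested.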

How the results depend on the processing

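No member was called in any of 20 alternatives, by edgeR or DESeq2. Leaving out each pool in turn, the number of members called ranged from 0 to 0, and the number with an unadjusted p under 0.05, reported as 2, from 0 (without POMC-C451A f/f pool 4, and without control pool 1) to 4 (without control pool 2), with 1 without POMC-C451A f/f pool 3. It was also 0 with 3 pools left out together and with the midbrain dopaminergic list as a covariate. These fits and that with the hypothalamus list as a covariate were chosen after seeing the data. The 3 pools are control pool 1, the highest for Ndn, Magel2, Nnat and Asb4, and POMC-C451A f/f pools 3 and 4, the lowest for these genes, so a smaller difference in them without these pools was set by the choice of pools and shows nothing further. The number of members whose groups did not overlap ranged from 0 to 3, being 3 without control pool 2 and 1 without POMC-C451A f/f pool 2, where 6.55% and 8.59% of all tested genes did not overlap. The wider list, with 7 genes at an unadjusted p under 0.05, ranged from 4 (without control pool 1) to 11 (without POMC-C451A f/f pool 2, and without control pool 2), and gave 3 with 3 pools left out. The number of all tested genes called, 4, ranged from 4 to 5 without 1 pool. It was 13 by DESeq2, 2 with at least 10 counts in every pool and 10 with 3 pools left out. With the replicate block it was 2, while members gave 0 called and 2 at an unadjusted p under 0.05 and the wider list 8. The deviations from the group mean of pools with equal number correlated at 0.141, -0.179, -0.109 and 0.243 over 18637 genes. These values are of both signs and do not settle whether the numbers pair pools. The order by level per length kept 10 of 10 places with DESeq2 size factors and 8 of 10 with the longest transcript.

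Ndn, Magel2 and Snrpn kept a log2 fold change below 0 in all 19 fits. With the 3 pools named above left out, Ndn was at -0.031 and Magel2 at -0.047. Asb4, Calcr, Mest, Gnas and Esr1 kept their direction in 19 fits and Kcnq1 in 18, the fits that gave it a value. Other members changed sign. Without 1 pool, the log2 fold change ranged from -0.063 to 0.021 for Peg3, from -0.057 to 0.071 for Ube3a, from -0.020 to 0.069 for Meg3 and from -0.035 to 0.017 for Grb10. With total counts Ube3a was at -0.0017. With 3 pools left out, Ube3a was at -0.12, Nnat 0.048, Meg3 -0.078, Dlk1 0.031, Grb10 0.027 and Cdkn1c 0.13. With the midbrain list as a covariate, Ube3a was at -0.13, Meg3 -0.049, Grb10 0.0057 and Cdkn1c 0.0070. With the hypothalamus list as a covariate, Ube3a was at -0.058, Meg3 -0.037, Grb10 0.0093 and Cdkn1c 0.010. Fewer pools leave less to test with, and beyond that the cause was not tested. With 4 pools of 2 animals each, small differences in the members, of which Snrpn had the narrowest 95% interval, were not resolved. The member with the fewest counts was Cdkn1c, with 159 to 362 a pool. Total RNA of a mixed tissue does not show POMC neurons on their own, and no value here separates parental copies.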
